A study of Mus musculus with 109 samples.

Results

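Nbl1, Edn1, Sdc4, Rflnb, Crtam and AW112010 are 6 of the 13902 genes measured in microglia of Il10ra mutant mice after an injection of lipopolysaccharide (LPS). They were chosen by name because their measured levels at 48 h were high in Il10ra mutants and low in controls, so that contrast is described here without a test. Nbl1, Edn1 and the others had been called restricted to Il10ra mutants, and the data went against that name: Edn1, Sdc4 and AW112010 rose in controls at 6 h, and all 6 genes were high in 2 of 4 control libraries at 24 h.

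The interleukin 10 (IL-10) receptor, whose alpha chain Il10ra encodes, signals through STAT3 and restrains the response of macrophages to bacterial products. LPS is a bacterial wall component that activates these cells through Toll-like receptor 4, and tumour necrosis factor (Tnf) is 1 of the cytokines released. The genes described have different roles. Nbl1 encodes a secreted antagonist of bone morphogenetic proteins (BMPs), and Edn1 the precursor of endothelin-1, a vasoconstrictor peptide best known from endothelium. Syndecan-4, the product of Sdc4, is a cell surface proteoglycan that carries heparan sulphate. Rflnb encodes refilin B, a filamin-binding protein that bundles actin. Crtam encodes an immunoglobulin-like receptor of activated T and NK cells whose ligand is the product of Cadm1. AW112010 is annotated as a long noncoding RNA and is known from activated macrophages.

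The study measured RNA by MARS-seq, a method that counts 3′ ends of transcripts, in 89 libraries of microglia enriched from mouse brain. Controls were IL10Rafl/fl mice, in which the receptor gene is floxed but no Cre is present, with 6 untreated libraries, 6 at 6 h, 4 at 24 h, 6 at 48 h and 4 at day 7 after LPS at 2.5 mg/kg into the peritoneum. Il10ra mutants, of genotype CX3CR1-CreER:IL10Rafl/fl, were sampled without LPS (9 libraries) and at 6, 24 and 48 h after the same dose (7, 5 and 5). Doubly floxed controls (IL10Rafl/fl:TNFfl/fl) gave 6, 5 and 6 libraries, untreated and at 6 and 48 h, and double mutants (CX3CR1-CreER:IL10Rafl/fl:TNFfl/fl) gave 5, 6 and 4. Untreated C57BL/6 mice gave 4 libraries, and 1 library at 48 h whose labels name different genotypes was put in no group. Mutants thus differed from their controls by the Cre allele as well as by the deletion. CX3CR1-CreER acts in other macrophages that express Cx3cr1 too, and the sources used here do not give the age of the mice or the timing of Cre induction. Nothing in the labels says how many mice stood behind a library, so the p-values measure the spread between libraries, which may be technical in part.

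Levels are normalized reads, the authors' gene counts divided by a size factor for the library, and each deposited table has its own scaling. Unless another table is named, values come from the table of Il10ra mutants and controls. Libraries held 540642 to 2489084 reads over the tables. Il10ra averaged 541 ± 103 (SD, n = 6) in untreated controls and 63.1 ± 33.2 (SD, n = 9) in untreated Il10ra mutants, and in double mutants its group means were 23.5 to 38.5 against 340 to 483 in doubly floxed controls. Tnf group means were 3.83 to 10.9 in double mutants against 14.5 to 399 in doubly floxed controls. All 12 microglial markers had a row, and their summed level was 41540 to 44000 in untreated controls, 25060 to 31470 in controls at 48 h and 9952 to 17400 in Il10ra mutants at 48 h. In bulk libraries, fewer cells of a type and less RNA per cell cannot be told apart. Crtam and Edn1 are known from lymphocytes and endothelium. Of 19 T and NK cell markers other than Ccl5, which macrophages make, 6 had a row and summed to 0.534 to 3.06 in Il10ra mutants at 48 h against 0 to 25.2 in controls at 48 h, and 5 of 10 endothelial markers other than Bsg summed to 7.10 to 16.7 there against 7.88 to 33.9 in controls at 48 h. Neuron markers (5 of 8 with a row) summed to 19.3 to 55.0 in Il10ra mutants at 48 h against 8.09 to 14.98 in controls at 48 h, with ranges apart. The part of these markers in the levels of the 6 genes was not tested.

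The members lie on 6 chromosomes, and no other RefSeq gene overlapped them. RefSeq on GRCm38.p6 places Nbl1 at chr4:139082291-139093126, Edn1 at chr13:42301476-42307990, Sdc4 at chr2:164424247-164443188, Rflnb at chr11:76019194-76027782, Crtam at chr9:40972798-41004628 and AW112010 at chr19:11047612-11050566. Promoters of 5 of the 6 matched a RefSeq entry, and Crtam had none. The 250 bases upstream of the start are shown for Edn1, Sdc4 and AW112010, which rose in controls at 6 h, and for Nbl1, which did not, 5′ to 3′ on the strand of the gene. For Nbl1 these are chr4:139092971-139093220 (minus strand), for Edn1 chr13:42301226-42301475 (plus strand), for Sdc4 chr2:164443189-164443438 (minus strand) and for AW112010 chr19:11050567-11050816 (minus strand). The start used for Nbl1 lies inside the gene as placed above, whose outer end is 139093126. Part of its stretch is therefore within the gene, and its motif search and base composition refer to that inner start. Capitals mark a match to the interferon-stimulated element (GAAA, any pair of bases, GAAA) in Edn1, on the opposite strand, and matches to a broad NF-kB consensus (GGG, a purine, any pair of bases, a pair of pyrimidines, CC) in Sdc4, on the strand shown, and in AW112010, on the opposite strand.
Nbl1: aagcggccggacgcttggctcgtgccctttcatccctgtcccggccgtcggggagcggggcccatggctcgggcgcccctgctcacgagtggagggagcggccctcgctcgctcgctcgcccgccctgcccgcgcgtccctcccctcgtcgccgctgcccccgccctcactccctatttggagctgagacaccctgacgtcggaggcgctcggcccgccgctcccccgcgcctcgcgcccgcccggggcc
Edn1: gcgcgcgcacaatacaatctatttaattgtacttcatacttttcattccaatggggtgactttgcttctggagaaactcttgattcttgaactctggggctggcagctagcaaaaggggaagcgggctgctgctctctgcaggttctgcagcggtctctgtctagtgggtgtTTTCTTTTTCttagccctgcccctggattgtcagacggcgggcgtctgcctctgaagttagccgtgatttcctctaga
Sdc4: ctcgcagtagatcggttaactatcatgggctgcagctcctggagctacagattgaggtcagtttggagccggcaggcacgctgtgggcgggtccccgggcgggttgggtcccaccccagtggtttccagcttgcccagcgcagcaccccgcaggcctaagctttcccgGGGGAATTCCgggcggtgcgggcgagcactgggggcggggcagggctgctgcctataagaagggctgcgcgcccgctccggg
AW112010: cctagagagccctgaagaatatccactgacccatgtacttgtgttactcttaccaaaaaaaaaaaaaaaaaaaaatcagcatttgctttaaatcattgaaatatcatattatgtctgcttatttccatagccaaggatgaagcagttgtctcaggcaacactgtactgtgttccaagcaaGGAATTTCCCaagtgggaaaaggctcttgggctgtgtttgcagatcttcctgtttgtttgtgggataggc
Matches were searched in 300 bases, the 250 upstream and 50 downstream of the start, on both strands except the TATA box. The match in Edn1 began at -78, that in Sdc4 at -82 and that in AW112010 at -70, counted from the start site. The interferon-stimulated element was found in 1 of the 5 promoters and in 3.45% of 32544 promoters of the same length. The broad NF-kB consensus, chosen after the sequences were seen, was found in 2 of the 5 and in 8.49% of all. None of the 5 held the stricter NF-kB form (GGG, any pair of bases, TTTCC; 1.61% of all promoters), AP-1 TGANTCA (7.79%), STAT TTCNNNGAA (8.33%), the cyclic AMP element TGACGTCA (1.8%), PU.1 GAGGAAGT (3.11%), C/EBP TTGCNNAA (10.8%) or TATAAA (8.28%). No searched motif was found in more than 2 of the 5. Their base composition differed as well: G and C made up 78.3% of the 300 bases for Nbl1, 77.0% for Rflnb, 67.7% for Sdc4, 51.3% for Edn1 and 40.0% for AW112010, against a median of 53.0% over all promoters.

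Without LPS the 6 genes were low in both genotypes, and Nbl1 was the one whose ranges lay apart. AW112010 had its lowest, median and highest untreated level at 2.41, 12.6 and 41.8 normalized reads in controls and at 9.4, 15.4 and 20.0 in Il10ra mutants. Nbl1 stood at 10.3, 11.9 and 24.1 in controls and at 1.61, 7.69 and 9.9 in mutants, all below the lowest control. That Nbl1 difference was log2 -0.90 ± 0.56 (SE, 95% interval -2.03 to 0.23). Untreated Edn1, Sdc4, Rflnb and Crtam overlapped between the genotypes. By limma 0 of the 6 genes passed an adjusted p of 0.05 (0 also at an unadjusted p under 0.05, and 0 by edgeR and by DESeq2), beside 0.00865% of all genes tested in either direction.

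**Figure D1:**
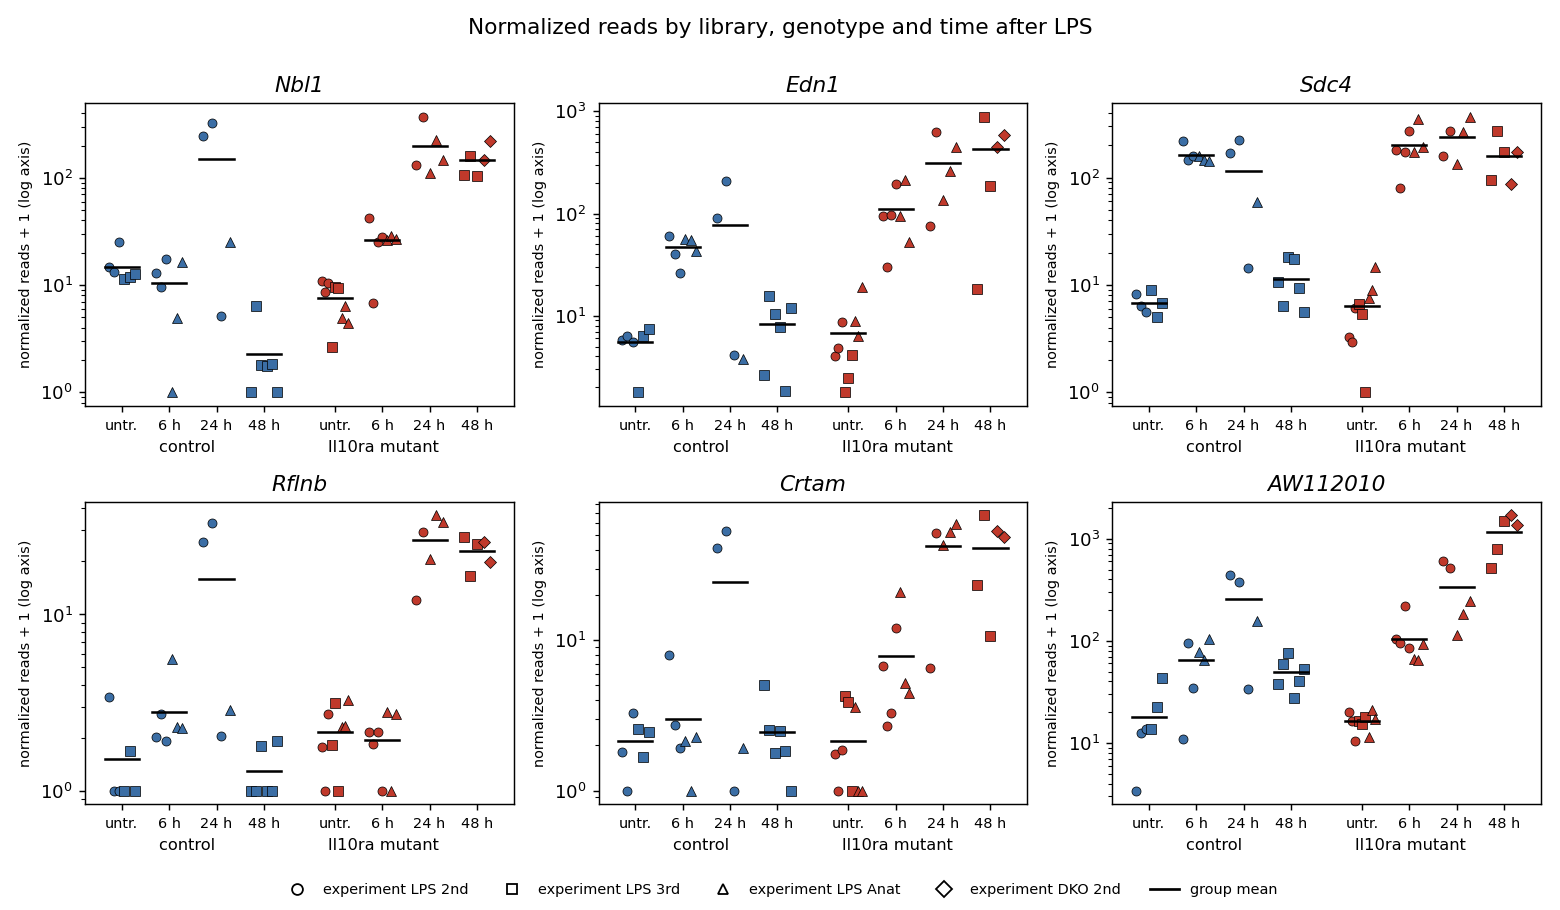
Normalized reads plus 1 (log axis) of the 6 genes in each library of controls and Il10ra mutants, untreated and 6, 24 and 48 h after LPS. Points are libraries, their shape gives the experiment, and black bars are group means; at 24 h the controls split into 2 high and 2 low libraries for Nbl1, Edn1, Rflnb and Crtam.

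The first question was how control microglia expressed these genes after LPS. Edn1, Sdc4 and AW112010 rose within 6 h, and Nbl1 did not pass the test. For Edn1 the lowest, median and highest control library went from 0.79, 5.1 and 6.49 without LPS to 25.5, 48.1 and 59.1 at 6 h. The 2 Edn1 ranges lay apart. In the controls' own table the rise was log2 3.44 ± 0.94 (SE, limma adjusted p = 0.00396). Sdc4 went from 4.05, 5.57 and 7.9 to 142.5, 152 and 218, the clearest change of the set, with every library at 6 h far above every untreated one (log2 4.78 ± 0.58, limma adjusted p = 1.28e-07). AW112010 went from 2.41, 12.6 and 41.8 to 10.02, 70.8 and 104, with overlapping ranges (log2 2.27 ± 0.69, limma adjusted p = 0.00865; the call was lost without untreated control 1, and within the second LPS experiment alone, at log2 2.03 ± 0.76, limma adjusted p = 0.063). Nbl1 at 6 h read 0, 10.3 and 16.4, overlapping the untreated libraries (log2 -0.38 ± 0.95, limma adjusted p = 0.782). Rflnb stayed at 4.59 or below and Crtam at 7.02 or below. Crtam did not pass the filter on low values in the controls' table, and of the other 5 genes 3 rose, beside 20.4% of all genes tested.

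At 24 h the 4 control libraries disagreed about all 6 genes. Nbl1 read 243, 325, 4.12 and 24.3 normalized reads in control libraries 1, 2, 3 and 4. Edn1 read 88.7, 209, 3.09 and 2.8 in the same order. Crtam read 40.1, 52.1, 0 and 0.934. In each case libraries 1 and 2 were high and libraries 3 and 4 were far lower. Rflnb gave 25, 32.1, 1.03 and 1.87, Sdc4 168, 222, 13.4 and 57.9, and AW112010 444, 379.9, 33 and 157. For Sdc4 and AW112010 library 4 lay between the others. Against untreated controls, Sdc4 (log2 3.59 ± 0.58, limma adjusted p = 2.51e-05), Rflnb (log2 2.64 ± 0.82, adjusted p = 0.0149) and AW112010 (log2 4.20 ± 0.69, adjusted p = 3.1e-05) passed, 3 of 5 tested beside 14.2% of all genes. Nbl1 (log2 2.15 ± 0.95, limma adjusted p = 0.0932) and Edn1 (log2 2.22 ± 0.94, adjusted p = 0.0763) did not. Both were called higher by edgeR (Nbl1 log2 3.45, adjusted p = 0.00032; Edn1 log2 3.95, adjusted p = 0.00116), by DESeq2, and by limma with a pseudocount of 5. Rflnb was no longer called without untreated control 2 or 3 or without 24 h control 1 or 2. With both of the latter left out, a choice made after their values were seen, it stood at log2 0.47 ± 0.79. Without 24 h control 3 all 6 genes passed, and without 24 h control 4 it was 5 (all but Nbl1).

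The high and low control libraries differed in other measures too. Control libraries 1, 2 and 3 came from the second LPS experiment, so it held both high and low ones, and library 4 came from another experiment. Il10ra was slightly lower in the high libraries, at 353 and 342 in libraries 1 and 2, and 389 and 388 in libraries 3 and 4, against 15.9 to 41.9 in Il10ra mutants at 24 h. Tnf was higher in the libraries with high Nbl1 and Edn1, at 857 and 1119 against 269 and 206. Across 11555 genes, which are not independent replicates, libraries 1 and 2 correlated with the mean of the Il10ra mutants at 24 h at r = 0.968 and 0.966, and libraries 3 and 4 at 0.896 and 0.92. With the mean of controls at 48 h the order was turned, at 0.905 and 0.875 against 0.948 and 0.943. Microglial markers summed to 16440 and 16500 in libraries 1 and 2, to 24900 and 20840 in libraries 3 and 4, and to 14860 to 17600 in the mutants. Neutrophil markers summed to 95.3 and 158.4 against 369 and 547, and monocyte markers to 52.6 and 82.0 against 202 and 168. The part of these markers and of the stimulus in the split was not tested.

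**Figure D2:**
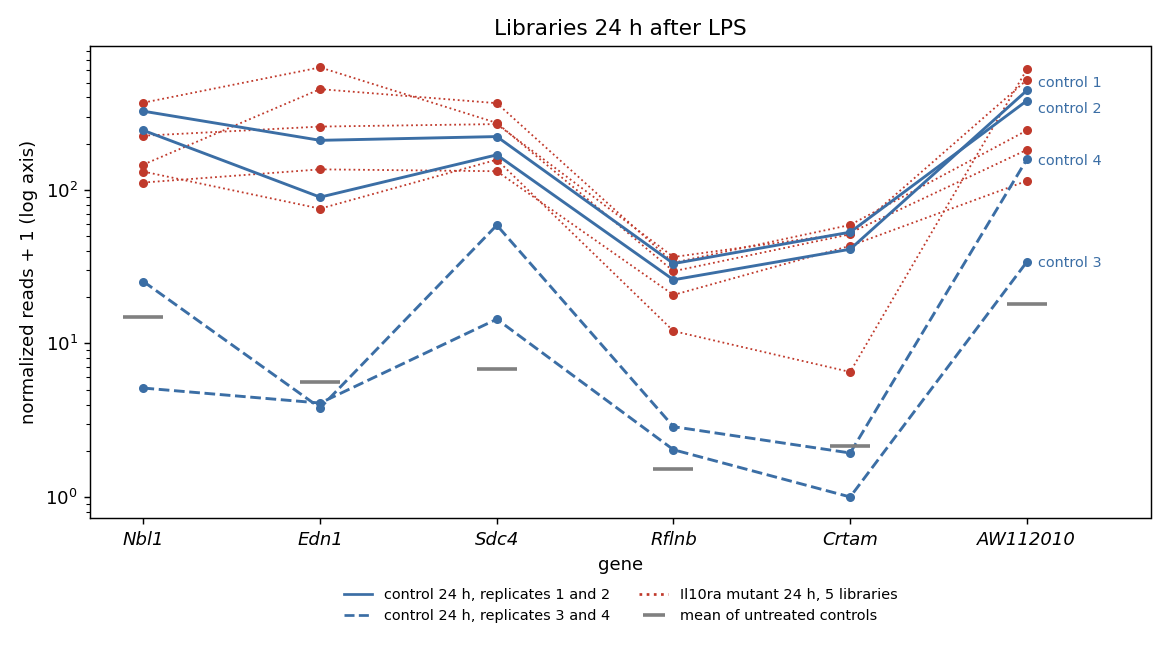
Normalized reads plus 1 (log axis) of the 6 genes (x axis) in each library at 24 h, with lines joining the values of 1 library and grey bars for the mean of untreated controls. Control libraries 1 and 2 sit among the Il10ra mutants for each gene, and control libraries 3 and 4 sit below every mutant, except that AW112010 in library 4 (157) overlaps the mutants.

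In Il10ra mutants 5 of the 6 genes rose by 6 h, all but Rflnb. Edn1 had its lowest, median and highest mutant library at 29.3, 93.7 and 214 at 6 h, from 0.807, 3.84 and 18.3 without LPS (log2 3.77 ± 0.66, limma adjusted p = 4.39e-06). Sdc4 went from 0, 5.13 and 13.7 to 79.4, 179 and 353 (log2 5.04 ± 0.41, limma adjusted p = 1.28e-14), again with ranges apart. AW112010 went from 9.4, 15.4 and 20.0 to 63.9, 93 and 219.8 (log2 2.83 ± 0.44, limma adjusted p = 4.54e-07). Nbl1 passed as well in the mutants, moving from 1.61, 7.69 and 9.9 to 5.85, 25.8 and 41 (log2 1.67 ± 0.55, limma adjusted p = 0.00913), and so did Crtam, from 0, 0.761 and 3.23 to 1.67, 4.17 and 19.8 (log2 1.96 ± 0.62, adjusted p = 0.00651). Rflnb read 0, 1.14 and 1.8 at 6 h and had not moved beyond its spread (log2 -0.23 ± 0.44, limma adjusted p = 0.683). The share of all genes tested that rose in the mutants at 6 h was 26.5%. Crtam fell short of the threshold when only the 2 groups were fitted, and within the second LPS experiment alone 3 of the 6 genes passed.

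Set against controls at 6 h, 0 of the 6 genes passed by limma, by edgeR or by DESeq2, and 2 had an unadjusted p under 0.05, beside 1.89% of all genes called higher by limma. Nbl1 came closest, at log2 1.61 ± 0.58 (SE, limma adjusted p = 0.104), followed by Crtam at 1.34 ± 0.65 (adjusted p = 0.237). AW112010 stood at 0.88 ± 0.46 (adjusted p = 0.28), Edn1 at 1.03 ± 0.69 (adjusted p = 0.418), Sdc4 at 0.25 ± 0.43 (adjusted p = 0.798) and Rflnb at -0.50 ± 0.45 (adjusted p = 0.572). Nbl1 is the gene whose mutant libraries at 6 h lay above the highest control, 16.4, except for library 2 at 5.85; without that library its call passed. The difference between the 2 genotypes' responses at 6 h passed for 0 of 6 genes by limma, edgeR and DESeq2, with 1 at an unadjusted p under 0.05 (Nbl1, log2 2.51 ± 0.81, adjusted p = 0.292), beside 0.0% of all genes.

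By 24 h all 6 genes were high in the Il10ra mutants. Nbl1 read 131, 369, 110.7, 224 and 145 in mutant libraries 1 to 5, and Edn1 read 74.5, 627, 135, 258 and 452. Rflnb, at 2.29 or below without LPS, read 11, 28.5, 19.7, 35.6 and 32.6. Each of these values lay above every untreated library of both genotypes. Sdc4 read 156.4, 272, 131, 267 and 366. Crtam read 5.52, 50.4, 42.2, 51.5 and 58.1, with library 1 far below the others. AW112010 read 608, 519, 113.5, 182 and 243, and here libraries 1 and 2, from the second LPS experiment, were the high ones. From the untreated mutants the differences were log2 4.72 ± 0.61 for Nbl1, 5.12 ± 0.73 for Edn1, 5.23 ± 0.45 for Sdc4, 3.51 ± 0.48 for Rflnb, 4.45 ± 0.68 for Crtam and 4.37 ± 0.49 for AW112010 (SE, limma adjusted p from 1.61e-13 to 3.76e-07). All 6 had an adjusted p under 0.05, beside 26.0% of all genes. The median over the 6, Rflnb included, was log2 4.58 against 0.00 over all genes tested. Rflnb read 5 or more in 12 libraries and Crtam in 16, where the filter on low values asked for 4. For Rflnb all of these were Il10ra mutants at 24 or 48 h or control libraries 1 and 2 at 24 h. Without these groups, in which it was high, Rflnb would not have been tested. Its call here is therefore a description rather than a test. For Crtam most were Il10ra mutants at 24 or 48 h, so it entered the count largely through groups where it was high. Rflnb was the gene that rose between 6 and 24 h without an earlier rise.

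Against controls at 24 h the call rested on Edn1 alone. Edn1 was higher in the mutants by log2 3.33 ± 0.85 (SE, 95% interval 1.62 to 5.04, limma adjusted p = 0.0222), 1 of 6 genes beside 1.11% of all genes called higher. That call was lost by edgeR (log2 2.08, adjusted p = 0.0643), by DESeq2 (log2 1.93 ± 0.85, adjusted p = 0.143), with only the 2 groups fitted (limma adjusted p = 0.504) and with the replicate block (limma adjusted p = 0.997). The 2 Edn1 ranges overlapped, since control libraries 1 and 2 at 88.7 and 209 were above mutant library 1 at 74.5. Nbl1 (log2 1.91 ± 0.71, limma adjusted p = 0.108), Sdc4 (1.43 ± 0.52, adjusted p = 0.107), Rflnb (1.49 ± 0.56, adjusted p = 0.114), Crtam (2.12 ± 0.79, adjusted p = 0.112) and AW112010 (0.70 ± 0.57, adjusted p = 0.507) did not pass. The difference of the responses at 24 h passed for 0 of 6 genes by limma, edgeR and DESeq2, with 4 at an unadjusted p under 0.05, beside 0.0% of all genes called higher. Edn1 had log2 3.47 ± 1.07 there (adjusted p = 0.17), and Nbl1 2.81 ± 0.89 (adjusted p = 0.17). Leaving out control libraries 1 and 2 was chosen after their values were seen. It takes out the controls in which these genes were high, so the differences that follow are a description and no test. Edn1 then stood at log2 5.87 ± 0.83 and Nbl1 at 4.01 ± 0.70. In the difference of responses AW112010 stood at log2 1.64 ± 0.75. Edn1 in turn was no longer called without control library 3, without control library 4, or without mutant library 2, 4 or 5, and 5 genes passed without control library 1 or 2 and 4 without mutant library 1. The difference of responses passed for 3 genes without control library 2 (Nbl1, Edn1 and Sdc4) and for 2 without mutant library 1 (Nbl1 and Edn1). Within the second LPS experiment, which holds control libraries 1, 2 and 3 and mutant libraries 1 and 2, 0 of 6 passed by limma, and in the other experiment the single control library had Edn1 at 2.8 against 135 to 452 in 3 mutant libraries, and Nbl1 at 24.3 against 110.7 to 224.

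The 48 h contrast is the one that chose the genes. Nbl1 had its lowest, median and highest control library at 0, 0.77 and 5.34, and its mutant libraries 1 to 5 at 105.9, 157, 103, 145 and 218. Edn1 had its control values at 0.832, 8.11 and 14.5 and its mutant libraries at 17.3, 883, 184, 449.9 and 583, so mutant library 1 lay just above the controls while library 2 was far higher. AW112010 had controls at 26.3, 45.7 and 75.6 and mutants at 516, 789, 1496, 1696 and 1368. Their mean was the highest of any group, although mutants at 24 h reached 608. Of the other 3 genes, Sdc4 read 4.58, 9.01 and 17.3 in controls and 94.7, 269, 171, 86.1 and 171 in mutants. Rflnb stayed between 0 and 0.917 in controls and read 26.5, 15.5, 24.1, 24.8 and 19 in mutants. Crtam stayed between 0 and 4.04 in controls and read 22.4, 66.7, 9.63, 52.4 and 47.8 in mutants. For no gene did the ranges overlap, which the choice of the genes brings with it. The narrowest gap was that of Edn1 (14.5 against 17.3) and the widest on the linear scale that of AW112010 (75.6 against 516). The fitted differences were log2 6.05 ± 0.73 for Nbl1, 4.48 ± 0.88 for Edn1, 4.01 ± 0.54 for Sdc4, 4.19 ± 0.58 for Rflnb, 3.56 ± 0.82 for Crtam and 4.19 ± 0.59 for AW112010 (SE). They rest on mutant libraries 1, 2 and 3, since libraries 4 and 5 came from another experiment that the fit describes by a term of its own.

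The time courses of the genes parted at this point. Nbl1 in controls at 48 h (mean 1.29) stood below its untreated mean of 13.8, whereas Sdc4, Edn1 and AW112010 in controls at 48 h overlapped their untreated ranges. In the mutants the mean of AW112010 was highest at 48 h (1173, against 333 at 24 h), with means of 934 and 1532 in its 2 experiments. Nbl1, Sdc4, Rflnb and Crtam had their highest mutant mean at 24 h instead (196, 239, 25.5 and 41.6), but their 24 h and 48 h ranges overlapped. Edn1 averaged 309 and 423, with overlap as well. Ranked by mean over the 8 groups, neighbouring groups overlapped for Sdc4, Rflnb, Crtam and AW112010 throughout. For Nbl1 the Il10ra mutants at 48 h (mean 145.7) lay apart from the next group, mutants at 6 h (25.2), while the 4 control libraries at 24 h (149) spanned both. For Edn1 controls at 6 h (45.9) lay apart from controls at 48 h (7.36), and the other neighbours overlapped.

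A further question was how the genes read when Tnf was deleted together with Il10ra. In the double mutants at 48 h, none of the 6 reached the level of the Il10ra mutants in the same table. Nbl1 read 1.33, 0, 0 and 3.39 in the 4 double mutant libraries, beside 0, 1.83 and 3.76 as lowest, median and highest doubly floxed control and 110.7, 166, 107.5, 151 and 227 in the Il10ra mutants. Edn1 read 6.18, 4.64, 0 and 1.13, beside 0, 2.41 and 9.28 in doubly floxed controls and 18.1, 928, 192, 469 and 609 in the Il10ra mutants. AW112010 read 66.3, 38.4, 27.8 and 24.8, beside 32, 36.5 and 46.7 and then 539.7, 830.0, 1566, 1768 and 1429.6. For each of these, every double mutant library lay below every Il10ra mutant library and within or near the range of the doubly floxed controls. Sdc4 (8.39, 2.65, 4.39 and 4.51), Rflnb (1.33, 0.662, 1.46 and 2.26) and Crtam (0.442, 0, 0 and 2.26) in double mutants at 48 h were likewise below the lowest Il10ra mutant library (89.8, 16.3 and 10.1). No test is given for that contrast, because the genes were chosen on the level of these Il10ra mutant libraries.

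**Figure D3:**
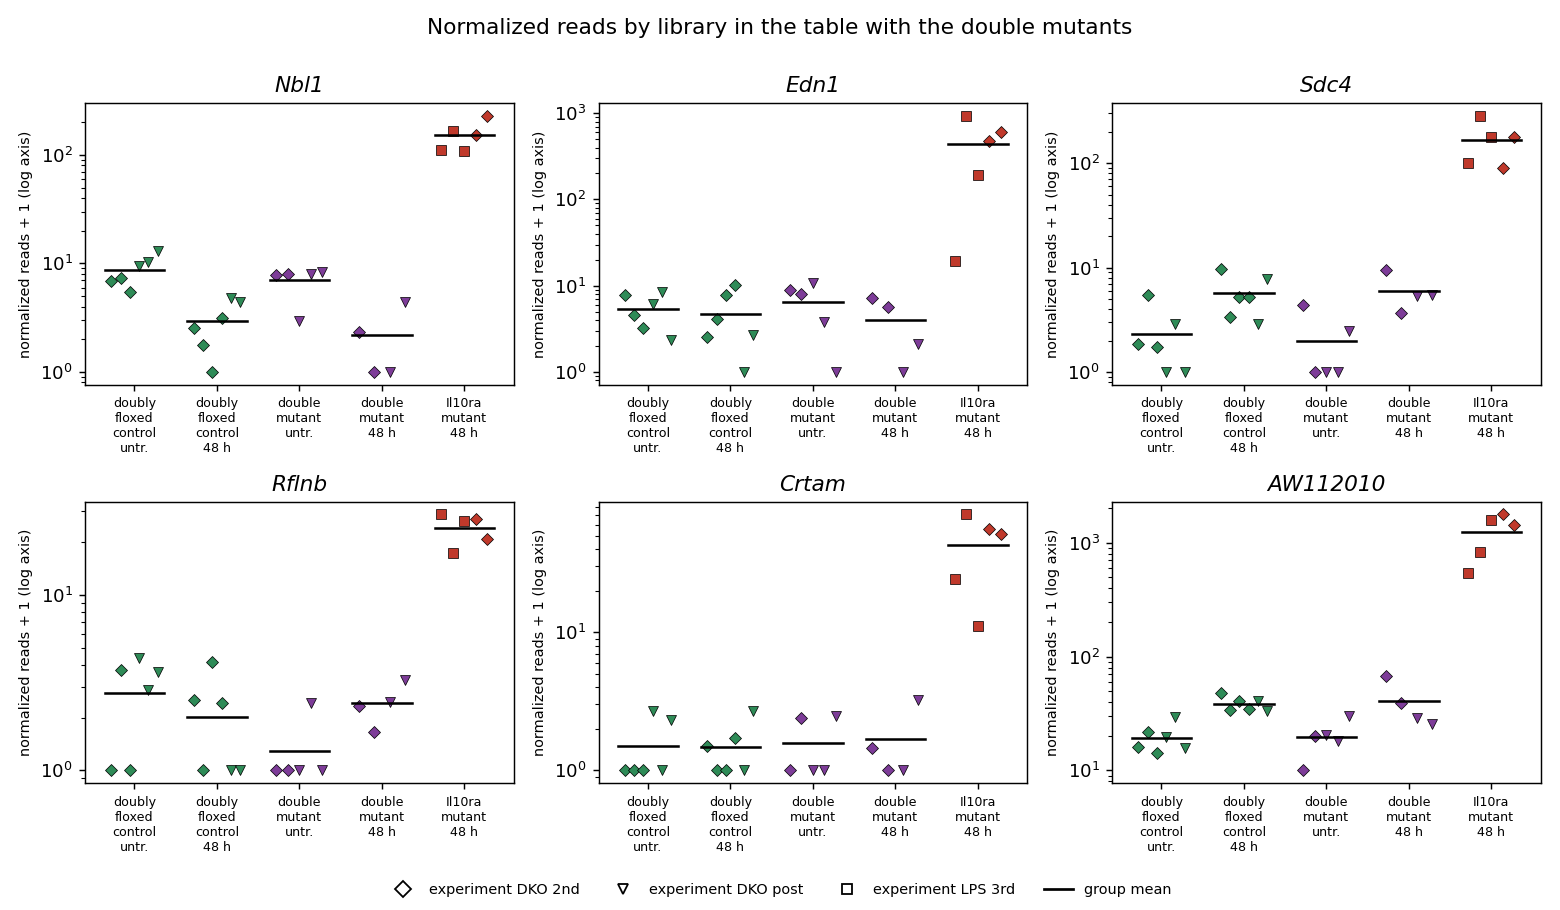
Normalized reads plus 1 (log axis) of the 6 genes in each library of doubly floxed controls and double mutants, untreated and 48 h after LPS, with Il10ra mutants at 48 h beside them; points are libraries, their shape gives the experiment, and black bars are group means. Double mutants overlap doubly floxed controls for every gene at 48 h, and all 5 Il10ra mutant libraries lie above both groups.

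Double mutants and doubly floxed controls were compared at each time with limma. Rflnb and Crtam passed the filter on low values in this table through the Il10ra mutants at 48 h, with 2 and 0 other libraries at 5 or more, so they are left out of the counts here. At 48 h 0 of the 4 other genes passed (0 at an unadjusted p under 0.05, and 0 by edgeR and by DESeq2), beside 0.0169% of all genes in either direction. The 95% intervals of the difference were log2 -1.43 to 0.23 for Nbl1, -1.40 to 1.26 for Edn1, -0.68 to 1.03 for Sdc4 and -0.62 to 0.52 for AW112010. Rflnb and Crtam lay near 0 in both groups. Without LPS 0 of the 4 passed by limma as well (0 at an unadjusted p under 0.05, and 0 by edgeR and DESeq2), beside 0.0254% of all genes in either direction. At 6 h 0 passed by limma and by edgeR, 1 had an unadjusted p under 0.05, and DESeq2 called 1, beside 0.0678% of all genes in either direction. That gene was AW112010, at 156.1, 303 and 399 (lowest, median, highest) in double mutants and 125.5, 156.2, 112.1, 236 and 169.9 in doubly floxed controls, a difference of log2 0.86 ± 0.26 (SE, limma adjusted p = 0.171).

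The early rise was present in these genotypes. Sdc4 in double mutants went from 3.38, 0, 0, 0 and 1.46 without LPS to 61.4, 86.1 and 105.6 (lowest, median, highest) at 6 h, log2 5.63 ± 0.40 (limma adjusted p = 1.17e-14). In doubly floxed controls Sdc4 reached 91.4, 119, 79.5, 76.6 and 61.7 (log2 5.43 ± 0.39, adjusted p = 2.28e-14). Both genotypes had every library at 6 h above every untreated one. AW112010 rose by log2 3.95 ± 0.26 in double mutants (limma adjusted p = 2.7e-15) and by 3.06 ± 0.26 in doubly floxed controls (adjusted p = 1.83e-12). Edn1 reached 17.4, 35.3 and 77 in double mutants (log2 2.62 ± 0.62, limma adjusted p = 0.000649) and 39.1, 31.7, 30.5, 25.5 and 11.6 in doubly floxed controls (log2 2.35 ± 0.61, adjusted p = 0.00193). At 6 h 3 of the 4 genes thus rose in double mutants (22.8% of all genes) and 3 in doubly floxed controls (21.6%). Nbl1 did not pass at 6 h in either genotype. Differences of the 2 responses passed for 0 of the 4 genes at 6 h and at 48 h by limma, edgeR and DESeq2, with 1 and 0 at an unadjusted p under 0.05, beside 0.00847% and 0.0% of all genes.

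At 48 h Nbl1 was lower than without LPS in both of these genotypes. Doubly floxed controls had Nbl1 at 4.45, 7.39 and 11.9 without LPS and at 0, 1.83 and 3.76 at 48 h, with ranges apart (log2 -1.64 ± 0.37, limma adjusted p = 0.000833). Double mutants went from 6.75, 7.04, 1.95, 7.07 and 7.32 to 1.33, 0, 0 and 3.39, with library 3 at the untreated time within the later range (log2 -1.84 ± 0.43, limma adjusted p = 0.00163). Sdc4 (log2 1.38 ± 0.38, limma adjusted p = 0.00576) and AW112010 (1.04 ± 0.25, adjusted p = 0.00177) were still raised in doubly floxed controls at 48 h. In double mutants Sdc4 stood at log2 1.78 ± 0.44 (adjusted p = 0.00289) and AW112010 at 1.03 ± 0.29 (adjusted p = 0.0102). In each genotype 2 of the 4 genes were higher (11.2% of all genes in double mutants, 13.8% in doubly floxed controls) and 1 was lower (6.86% and 9.83%). When only the 2 groups were fitted, 0 of these 3 calls remained in double mutants and that of AW112010 in doubly floxed controls. Without double mutant library 1 at 48 h the call of AW112010 was lost. The library put in no group had Nbl1 at 1.23, Edn1 at 3.68, Sdc4 at 9.81, Rflnb at 1.84, Crtam at 0 and AW112010 at 52.1.

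Day 7 controls and untreated C57BL/6 mice were read as well. At day 7, in the table of controls, Nbl1 read 3.81, 5.92, 4.62 and 15.3, Edn1 3.05, 0.74, 1.32 and 1.53, and AW112010 10.7, 16.3, 9.9 and 18.4. Of these, 3 of 4 Nbl1 values lay below the lowest untreated control of the table (11.2), while Edn1 and AW112010 overlapped the untreated ranges. None of the 3 passed, with Nbl1 at log2 -1.04 ± 0.79 (SE, limma adjusted p = 0.596), Edn1 at -1.10 ± 0.77 (adjusted p = 0.559) and AW112010 at -0.08 ± 0.57 (adjusted p = 0.973). Rflnb passed, at 35.1, 5.92, 5.94 and 3.06 against 0 to 2.62 in untreated controls, with ranges apart (log2 2.75 ± 0.67, limma adjusted p = 0.0138). It was the 1 of 5 genes that passed, beside 3.14% of all genes higher, and without day 7 library 1 it did not (log2 2.09 ± 0.69, adjusted p = 0.131). Rflnb read 5 or more in 6 libraries of the table, where the filter on low values asked for 4. The day 7 values 35.1, 5.92 and 5.94 were among these, and without them Rflnb would not have been tested. Its call at day 7 is therefore a description rather than a test. Neutrophil markers (10 of 10 with a row) summed to 2853 to 19800 at day 7 against 438.5 to 1276 in untreated controls of that table, and monocyte markers (9 of 9) to 254 to 731 against 35.2 to 58.5; their part in the Rflnb value was not tested. Day 7 is an experiment of its own, so time and experiment cannot be told apart. Untreated C57BL/6 libraries, in the table of untreated samples, had Nbl1 at 10.6, 11.2, 5.18 and 7 against 9.57 to 22.5 in the floxed controls there, and Edn1 at 7.07, 5.62, 3.45 and 2.8 against 0.736 to 6.03. Sdc4 was 4.71, 5.62, 6.91 and 2.8 against 3.79 to 7.36, and AW112010 8.25, 16.9, 10.4 and 8.4 against 2.22 to 38.8. For these 4 genes the untreated strains overlapped.

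Other genes of the pathways were read from 6 lists, 1 for each gene described. In controls at 6 h the list of BMP signalling had 4 higher and 4 lower genes of 16 tested, that of the endothelin pathway 2 and 1 of 8, syndecans and heparan sulphate 8 and 0 of 23, refilins, filamins and actin bundling 8 and 2 of 17, and nectins and their receptors 1 and 1 of 7. IL-12 and immune noncoding RNA had 12 higher and 0 lower of 16, with a median of log2 1.14 against -0.05 over all genes. Over all genes tested 20.4% were higher and 21.1% lower, shares that the BMP list was near. The endothelin and nectin lists, with 8 and 7 genes tested, are too small to be told apart from these shares. Of the BMP list the examples name risen genes and none of the 4 lower ones. Examples are Id2, an inhibitor of transcription factors induced by BMPs (log2 4.38 ± 0.36), the protease Bmp1, which releases BMPs from their binding proteins (2.23 ± 0.41), Mmp14, a membrane protease that can shed syndecans (2.16 ± 0.27), the protease Furin, which cleaves the endothelin precursor (0.89 ± 0.24), and filamin A, Flna (1.28 ± 0.33), all called by limma. Il12b, the IL-12 subunit p40, rose (log2 4.31 ± 0.59), and the Crtam ligand Cadm1 fell (log2 -2.01 ± 0.20), as did Rgs2, a regulator of G protein signalling (log2 -1.77 ± 0.32).

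Between Il10ra mutants and controls at 24 h, 2 of the 91 list genes tested passed, both lower: Il10ra itself (log2 -3.82 ± 0.31, limma adjusted p = 3.9e-12) and Fblim1, which codes for a filamin-binding adhesion protein (log2 -1.22 ± 0.36, adjusted p = 0.0451). Of all genes tested 3.5% passed in either direction at 24 h. At 6 h 7 of 91 passed, 6 of them higher, beside 3.31% of all genes in either direction. The higher ones were the BMP-binding protein gene Twsg1 (log2 1.39 ± 0.35, limma adjusted p = 0.0197), Ext1, which builds heparan sulphate chains (1.07 ± 0.26, adjusted p = 0.0138), Cadm1 (0.95 ± 0.18, adjusted p = 0.00561), Il12b (1.64 ± 0.49, adjusted p = 0.0471), and the actin-linked genes Sun2 (0.54 ± 0.16, adjusted p = 0.0447) and Zyx (0.52 ± 0.15, adjusted p = 0.0498). Twsg1, Ext1, Sun2 and Zyx were chosen after their values were seen. Mmp14 (0.80 ± 0.25, adjusted p = 0.0531) and Id2 (0.93 ± 0.30, adjusted p = 0.0698) missed the threshold at 24 h. Il12b averaged 249 ± 178 (SD, n = 5) in Il10ra mutants at 48 h and 7.26 ± 5.91 (SD, n = 6) in controls. In double mutants against doubly floxed controls at 48 h, Il10ra alone passed of 91. The syntenin gene Sdcbp, whose product binds syndecans, stayed between 111.5 and 254.7 in every library of the mutants and controls, and the endothelin-converting enzyme gene Ece1 stayed at 33.1 or below. Ednrb, an endothelin receptor gene, averaged 0 to 1.67 in the table of double mutants. Ednra, Bmp2 and Bmp4 had no row there or in the table of Il10ra mutants and controls.

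Over the 48 libraries of mutants and controls, pairs of the 6 genes correlated at r = 0.59 (Sdc4 with Rflnb) to 0.858 (Edn1 with Sdc4) on log2(value + 1). The libraries share groups and experiments and include the 48 h libraries on which the 6 genes were chosen, which by itself makes such r positive in part, so these r are descriptions without a p. Genes with the most similar pattern to Edn1 were Ch25h (r = 0.936) and the chemokine genes Ccl3 (0.935) and Ccl4 (0.929). Sdc4 was closest to Srgn (0.951), Plaur (0.944) and Id2 (0.9395), which were already raised in controls at 6 h. Nbl1 was closest to Egln2 (0.851), Tmem128 (0.839) and Pde1b (0.837), and Rflnb to Slc6a12 (0.881), Plxnd1 (0.828) and Lgals3 (0.809). Crtam was closest to Wdfy1 (0.8898), Prr7 (0.866) and Vps11 (0.865), and AW112010 to Snhg6 (0.9075), Slc13a3 (0.896) and Cd47 (0.896). No gene stood among the 3 nearest of more than 1 of the 6. The group means of Egln2 and Ccl3 show the likeness in the 24 h controls too, at 372 ± 355 and 2729 ± 2465 (SD, n = 4), a spread nearly as wide as the mean.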

How the data were processed

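RNA was measured in 89 libraries, and the 20 ATAC libraries of the series, with peaks on mm9, were not analysed here. The values were 4 tables of normalized signal deposited by the authors, in normalized reads per gene and library, and per the file headers the columns are normalized. Mapping was to mm10, per the submitters' processing notes. The sources used here do not give the aligner, the counter or the origin of the size factors. Gene counts had been divided by a size factor, since 100.0% of values came out as whole reads within a tolerance of 0.01. The tables held 48 (mutants and controls), 26 (controls), 38 (double mutants) and 19 (untreated) libraries. Control libraries in the first and second of these hold the same reads, so those tables are not independent. Between 17 and 18 genes per table whose names had turned into dates were left out.

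Groups came from the labels. The library whose labels conflict entered no test, and an untreated double mutant whose column name calls it a mistake was kept, as its labels agree on the group. Values were taken as log2(value + 1), which understates the change of low genes. Genes with at least 5 normalized reads in at least 4 libraries were tested: 11555, 11103 and 11800. limma 3.58.1 with a trend (R 4.3.3) was fitted for each table over all its groups, with the labelled experiment as an additive term, and p-values were adjusted by Benjamini-Hochberg over all genes tested, with a call at 0.05, for 19 comparisons. Only part of the groups shared an experiment. edgeR 4.0.16 (quasi-likelihood) and DESeq2 1.42.0 were run on the recovered reads as alternatives, and for Il10ra mutants against controls at 24 h edgeR called 120 genes higher and 388 lower, limma 128 and 277. Other alternatives were the pseudocount, the filter, quantile normalization, no experiment term, only the groups compared, the replicate block, 1 experiment at a time and each library left out. The fits were tested on simulated data. Figures and tables were made with Python 3.11.15.

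The 6 genes and the lists were chosen with earlier results of these data known. Named are these genes, the targeted genes, genes with a given role, the 3 genes most correlated with each of the 6 (group mean of at least 20 normalized reads, no Gm or Rik names), and list genes with the lowest p at 24 h in Il10ra mutants or at 48 h in double mutants. The labels tie no replicate number to an animal, litter or day. In doubly floxed controls at 6 h against untreated, all 5 same-numbered pairs of deviations from the group means correlated, at 0.131 to 0.226. Of these, 4 correlated best with their own number. Pairs in double mutants at 48 h against untreated were positive as well (0.031 to 0.292). Same-numbered doubly floxed controls also came from the same experiment, so number and experiment cannot be told apart. The replicate block changed no call of the 6 genes in doubly floxed controls at 6 h against untreated. No pair of replicates agreed within sampling noise.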

Additional observations from a re-analysis of the deposited data

Results flagged for a closer look

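A library stood apart from the rest of its group, by a gap large against the range of the group, in 10 of 94 combinations of gene and group. The rule flags about 1 in 20 groups of normally distributed values. That rate does not carry over to low read counts, and some of the flagged values rest on few reads, so the count is not set against it. Nbl1 was 24.1 normalized reads in untreated control 3 against 10.27 to 13.67 in the others, 5.339 in control 2 at 48 h against 0 to 0.8322, and 5.851 in Il10ra mutant 2 at 6 h against 24.04 to 40.96. In untreated double mutant 3 Nbl1 was 1.95 against 6.755 to 7.321. Edn1 was 0.7896 in untreated control 4 against 4.59 to 6.488. Sdc4 was 217.5 in control 1 at 6 h against 142.5 to 158.3. Rflnb was 4.588 in control 4 at 6 h against 0.9095 to 1.71, and 1.414 in untreated double mutant 4, where the others were listed at 0. Crtam was 5.518 in Il10ra mutant 1 at 24 h against 42.22 to 58.15. AW112010 was 219.8 in Il10ra mutant 3 at 6 h against 63.87 to 102.4.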

How the results depend on the processing

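The count of the 6 genes called for Il10ra mutants against controls at 24 h, 1 as reported, was 0 by edgeR, 0 by DESeq2, 0 with only the 2 groups, 0 with the replicate block, 0 within the second LPS experiment, and 0 to 5 with 1 library left out. It was 6 without control libraries 1 and 2, a choice made after seeing the data that takes out the high controls and so is no test. For the difference of responses at 24 h, 0 as reported, it was 5 without those 2 libraries and 0 to 3 with 1 left out. At 6 h the mutant against control count of 0 ran from 0 to 1 with 1 library left out, and the mutant count against untreated, 5, was 3 within the second LPS experiment. Controls at 24 h against untreated, 3 as reported, gave 5 with a pseudocount of 5, 5 by edgeR, 5 by DESeq2 and 2 to 6 with 1 library left out. At day 7 the count of 1 was 0 with a filter at 10 normalized reads (Rflnb was then not tested), 0 with only the 2 groups, 0 with the replicate block and 0 to 1 with 1 library left out. Double mutants against their controls at 6 h gave 1 by DESeq2. For double mutants at 48 h against untreated, 3 became 0 with only the 2 groups, 0 with the replicate block and 0 within 1 experiment, and for doubly floxed controls 3 became 1, 1 and 1. The described differences at 48 h moved for Nbl1 to log2 4.36 with a pseudocount of 5, for Crtam to 2.27 with a pseudocount of 5, and for Rflnb to 4.98 and 2.33 with pseudocounts of 0.5 and 5, 5.82 by edgeR and 6.24 by DESeq2. No direction reversed. Of the other settings 190 counts stayed within 1.5 times and 21 did not, and with 1 library left out 255 and 14. In no comparison did every sample correlate best with its own number. The replicate block also lost Crtam in the mutants at 6 h and Rflnb in controls at 24 h against untreated. The cause of these changes was not tested. Levels of Rflnb and Crtam rest on few reads in most libraries other than Il10ra mutants at 24 and 48 h, which limits the differences that could be detected. Exceptions include controls at 24 h, with up to 38 reads of Rflnb and 61 of Crtam, and controls at day 7, with up to 46 reads of Rflnb.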
